A study of Mus musculus with 6 samples.

Results

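The core circadian clock loop was described here through 10 genes, namely the activators Arntl, Clock and Npas2 and the repressors Per1, Per2, Per3, Cry1, Cry2, Nr1d1 and Nr1d2. They were taken by name, through the transcript accession that the array gives to each probe, and each of the 10 had 1 probe. Of these, 8 belonged to the 20900 genes that could be tested; the probes of Npas2 and Cry1 were too dim. The list was chosen by known role in the clock but with the measured differences between aged and young mice already in view, so these differences are given as a description, with no test.

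RNA was measured in the gastrocnemius muscle of male C57BL/6J mice, 3 young (13 weeks of age) and 3 aged (26 months of age), with 1 single-colour array per mouse. The labels and methods name no transgene and no treatment for these mice. The hour at which the muscles were taken is not given in the sources used here. Whether it differed between young and aged mice could not be tested, so age and hour cannot be told apart in any difference below. Values are log2 signals relative to the 75th percentile of the array, so that 0 is that percentile and a difference of 1 is a 2-fold difference.

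In mammalian cells, ARNTL (also called BMAL1) pairs with CLOCK or NPAS2 and switches on genes that carry an E-box in their control regions. Among these are the Per and Cry genes, whose proteins return to the nucleus and inhibit the pair, and Nr1d1 and Nr1d2, which encode the receptors REV-ERBα and REV-ERBβ and repress Arntl through ROR response elements. Arntl transcripts therefore peak at about the opposite time of day to those of Nr1d1, Per and the output gene Dbp. Skeletal muscle keeps such a clock of its own, which times part of its metabolism.

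Stretches of the control regions are shown because the factors of the loop are known to act through such elements. RefSeq start sites on GRCm38.p6 were at hand for 9 of the 10 genes, with 250 bases before and 50 after each start, and not for Per2. Searched on both strands were the E-box CACGTG, the related CACGTT, the D-box TTATGTAA and the ROR response element, which do not overlap in the stretches printed. CACGTG was found in 7.15% of the 32851 promoters of all genes, CACGTT in 4.68%, TTATGTAA in 0.938% and the ROR response element in 0.384%. Of the 9 clock genes, 2 held CACGTG (Per1 and Cry1), 3 held CACGTT (Cry1, Cry2 and Nr1d1), 1 held TTATGTAA (Per3, at 2 positions) and 1 held the ROR response element (Arntl). A gene is counted here if any of its promoters matched, and the 9 genes had 13 promoters. The percentages count single promoters, so the 2 are not on the same footing. The stretches run 5′ to 3′ along the strand of the gene, with the elements in capitals, and AACGTG is CACGTT read on the other strand. They cover chr11:69098753-69098872 on the + strand for Per1, chr10:85185055-85185163 on the - strand for Cry1, chr2:92434146-92434265 on the - strand for Cry2, chr11:98775378-98775435 on the - strand for Nr1d1, chr4:151044781-151044900 on the - strand for Per3 and chr7:113207527-113207556 on the + strand for Arntl. All lie before the start except that of Arntl, which begins at base 17 of the transcript. A match of letters is a description and does not show that a factor binds there.
Per1: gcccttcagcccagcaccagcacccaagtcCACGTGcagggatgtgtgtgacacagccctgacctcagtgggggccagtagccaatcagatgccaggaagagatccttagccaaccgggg
Cry1: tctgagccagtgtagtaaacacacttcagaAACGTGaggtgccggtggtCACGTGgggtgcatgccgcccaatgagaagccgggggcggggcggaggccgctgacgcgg
Cry2: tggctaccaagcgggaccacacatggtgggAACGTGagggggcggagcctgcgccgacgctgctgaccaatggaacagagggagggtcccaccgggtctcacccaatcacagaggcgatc
Nr1d1: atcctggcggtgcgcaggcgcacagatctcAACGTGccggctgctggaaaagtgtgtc
Per3: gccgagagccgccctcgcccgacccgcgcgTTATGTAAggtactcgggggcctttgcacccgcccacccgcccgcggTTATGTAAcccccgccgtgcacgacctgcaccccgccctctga
Arntl: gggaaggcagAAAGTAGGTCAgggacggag

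All 6 arrays were on 1 slide, with the 3 young mice and aged mouse 1 in its first row and aged mice 2 and 3 in the second. Between 48.7% and 53.8% of probes were well above background, and no probe was saturated. The muscle fibre markers Ckm, Acta1, Myh4, Ttn and Actn3 lay between 8.42 and 10.07 on every array, and their summed signals, as multiples of the 75th percentile, ranged from 3446 to 4040 in young and from 2658 to 3851 in aged mice. Of the genes of other cells, the medians of the aged minus young differences were 0.55 for 4 of 5 macrophage markers, -0.29 for 4 of 5 adipocyte markers, -0.67 for 6 of 6 Schwann cell markers and -1.11 for 4 of 5 erythrocyte markers, against -0.06 for all genes. On the same scale, their summed signals ranged from 17.1 to 18.9 in young and from 18.8 to 23.4 in aged mice for macrophages and from 136 to 148 and from 104 to 135 for adipocytes. For Schwann cells they ranged from 23.9 to 43.9 and from 24.2 to 41.2, and for erythrocytes from 635 to 921 and from 289 to 459. Of these markers, Prx (Schwann cells) passed the threshold in limma, at -1.29 (adjusted p = 0.0428). The defining markers Cd163 (macrophages) and Lep (adipocytes) were not well above background on 6 and 5 of the 6 arrays. The part of these cells in the values of the clock genes was not tested. In bulk muscle, fewer cells of a type and less RNA per cell cannot be told apart.

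Both activators that could be measured were higher in aged muscle. Arntl, without which the clock of the mouse stops, was 2.34, 2.52 and 2.33 in the young mice, given here and below in the order of mouse 1, 2 and 3, and 3.25, 3.57 and 3.91 in the aged mice. All aged mice lay above all young mice, with a gap of 0.73 between the groups. The means were 2.39 ± 0.11 (SD, n = 3) and 3.58 ± 0.33 (SD, n = 3), a log2 difference of 1.19 (standard error 0.21) or 2.27-fold. Clock, the partner of ARNTL, was 0.74, 0.52 and 0.35 in young mice and 0.997, 1.31 and 1.36 in aged mice. Its groups were also apart, by 0.25, and the log2 difference was 0.68 (standard error 0.19) or 1.60-fold. With background corrected by normexp, a model of signal plus background, the difference of Clock was 0.30. Npas2, which can take the place of CLOCK, was well above background on 0 young and 1 aged arrays, so that no fold is given. Its signals were -6.22, -4.43 and -6.21 in young mice and -4.68, -3.95 and -3.68 in aged mice, and the groups overlapped.

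**Figure D1:**
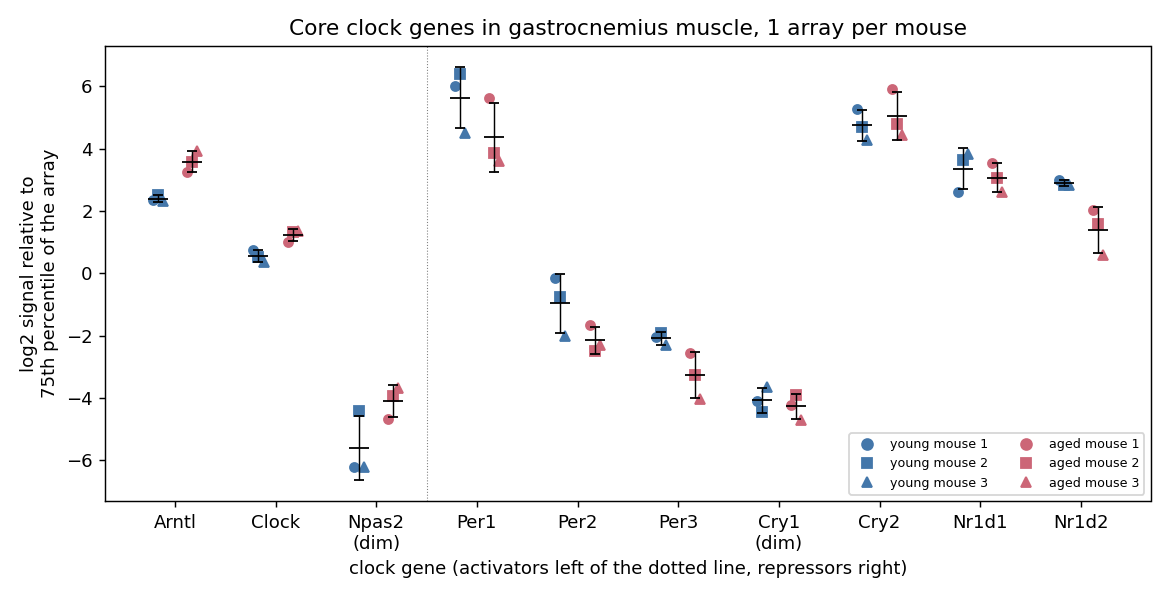
Log2 signal of the 10 core clock genes relative to the 75th percentile of the array (vertical axis), by gene (horizontal axis), for young (blue) and aged (red) mice; each symbol is 1 mouse, and black bars are the mean and SD of 3 mice. Arntl and Clock are higher in every aged mouse, and Per3 and Nr1d2 lower in every aged mouse, than in any young mouse; levels of different genes come from different probes and cannot be compared.

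The period genes, whose proteins inhibit the activators, were all lower on average in aged muscle, but only the groups of Per3 were apart. Per3 was -2.06, -1.92 and -2.31 in young mice and -2.55, -3.27 and -4.03 in aged mice, a log2 difference of -1.19 (standard error 0.37) or 0.440-fold. The gap between the groups was 0.24, and the probe was well above background in 3 young and 2 aged mice. With normexp the difference of Per3 was -0.54. Per1, which also responds quickly to stress and hormones, was 6.001, 6.397 and 4.51 in young mice and 5.63, 3.85 and 3.61 in aged mice. Aged mouse 1 lay among the young mice, and young mouse 3 was lower than aged mouse 1, so that the groups overlapped, although the means differed by -1.28 (standard error 0.67). Per2, which couples the 2 arms of the loop by also binding REV-ERB receptors, was -0.14, -0.76 and -2.01 in young mice and -1.66, -2.50 and -2.29 in aged mice. It was again low in young mouse 3, which lay below aged mouse 1, and the means differed by -1.18 (standard error 0.48). Without young mouse 1 the difference of Per2 was -0.76.

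The cryptochromes are the stronger inhibitors of the pair. Cry2 was 5.27, 4.69 and 4.27 in young mice and 5.90, 4.79 and 4.44 in aged mice. The groups overlapped, and the log2 difference of 0.30 (standard error 0.43) was -0.13 without aged mouse 1. Cry1 was well above background on 1 young and 0 aged arrays, at -4.10, -4.47 and -3.66 in young and -4.21, -3.90 and -4.70 in aged mice, so that no difference can be read from its probe.

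Of the REV-ERB receptors, the groups of Nr1d2 were apart and those of Nr1d1 overlapped. Nr1d2 (REV-ERBβ) was 3.00, 2.83 and 2.83 in young mice and 2.01, 1.57 and 0.57 in aged mice. All aged mice were below all young mice, with a gap of 0.81, the widest among the members. The means were 2.89 ± 0.10 and 1.38 ± 0.74 (SD, n = 3 each), a log2 difference of -1.50 (standard error 0.36) or 0.353-fold. Nr1d1 (REV-ERBα), the main repressor of Arntl, was 2.60, 3.64 and 3.81 in young mice and 3.55, 3.05 and 2.61 in aged mice. Young mouse 1 had the lowest value of the 6, the groups overlapped, and the difference of -0.28 (standard error 0.38) was smaller than the SD within either group, 0.66 and 0.47. It was -0.66 without young mouse 1, -0.52 without aged mouse 1, -0.14 without young mouse 2 and -0.051 without young mouse 3 or aged mouse 3.

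Of the 8 members tested, 3 had a higher and 5 a lower mean in aged mice, against 43.1% and 56.9% of all genes. In 2, the values were higher in every aged mouse than in any young mouse and in 2 lower, where 21.8% of all genes had groups that did not overlap (7.92% higher and 13.9% lower). In limma with Benjamini-Hochberg adjustment over all genes, 0 of the 8 had an adjusted p under 0.05, a threshold that 0.254% of all genes passed, and 5 (2 higher and 3 lower) had an unadjusted p under 0.05, as had 14.4% of all genes (6.07% higher and 8.36% lower). As the contrast was known when the list was made, nothing is read from these counts. Without aged mouse 1, 199 of the 20900 genes were called, against 53 with all 6 mice, and Arntl was the 1 member among the 199. Nothing is read from this call either. With 3 arrays a group the precision is low, and 0.1 is the smallest p that an exact permutation test (two-sided) could reach.

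Activators and repressors were set against each other on each array, after the young mean of each gene was subtracted. The mean of Arntl and Clock was 0.66, 0.98 and 1.17 in aged mice 1 to 3. The mean of the 6 repressors tested was -0.11, -1.01 and -1.44 in the same mice. The activators minus the repressors were thus 0.77, 1.99 and 2.61 in aged mice, against -0.11, -0.17 and 0.28 in young mice. The groups did not overlap in this balance, and the means were 1.79 ± 0.93 in aged and 0 ± 0.24 in young mice (SD, n = 3 each), where the mean of the young mice is 0 by construction. As the balance is made of member differences that were in view when the list was chosen, nothing is read from the lack of overlap. In aged mouse 1 the balance came mostly from the activators, whereas in aged mice 2 and 3 the repressors made up at least as much. Aged mice 2 and 3 were the only mice in the second row of the slide. With no young mouse in that row, age and row cannot be told apart for them. As the hour of collection is not given, age and hour cannot be told apart for any of the mice. Within the first row, the balance of aged mouse 1 was 0.77.

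**Figure D2:**
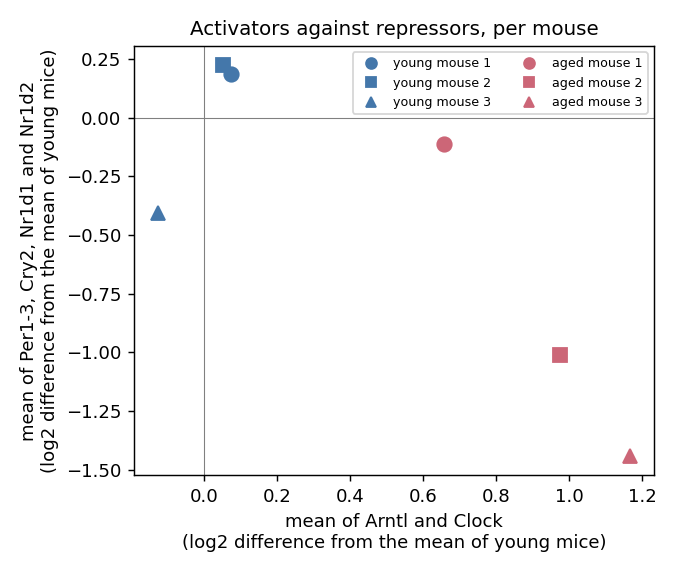
Mean log2 difference from the young mean for the activators Arntl and Clock (horizontal axis) and for the 6 repressors tested (vertical axis), 1 symbol per mouse, young in blue and aged in red. Aged mice 2 and 3 lie at 0.98 and 1.17 for activators and at -1.01 and -1.44 for repressors, and aged mouse 1 lies between them and the young mice for activators but among the young mice for repressors.

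Among the members whose groups did not overlap, the aged mice followed a shared order. For all 4, aged mouse 3 lay farthest from the young mice and aged mouse 1 nearest. This order was found in 28.2% of the 4559 genes whose groups did not overlap. As the list was made with the contrast known, nothing is read from this count. Per3, 1 of the 4, was well above background in only 2 aged mice. Of the other members, Per1 and Nr1d1 had the same order, but Per2 lay farthest in aged mouse 2 (-1.52) and Cry2 in aged mouse 1 (1.16). Aged mouse 1 was the only aged mouse in the first row of the slide. Within that row, it differed from the young mean by 0.86 for Arntl, 0.46 for Clock, -0.45 for Per3, -0.69 for Per2 and -0.87 for Nr1d2, but by -0.012 for Per1, 0.20 for Nr1d1 and 1.16 for Cry2. The row and the difference between aged mouse 1 and the other aged mice cannot be told apart.

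The spread among the 3 young mice, a description since their arrays were part of the contrast already known, was very unequal. The SD was 0.99 for Per1, 0.95 for Per2, 0.66 for Nr1d1 and 0.50 for Cry2, against a median of 0.23 over all genes. Only 2.61% of genes had a larger SD than Per1, 2.94% than Per2 and 8.48% than Nr1d1. Per1 and Per2 spanned 3.69-fold and 3.66-fold among young mice, lowest in young mouse 3 for both. Nr1d1 spanned 2.32-fold, with young mouse 3 highest and young mouse 1 lowest. By contrast, the SD was 0.11 for Arntl, 0.20 for Clock, 0.20 for Per3 and 0.10 for Nr1d2, below the median of all genes. The members whose groups of young and aged mice did not overlap were those with the smallest SD among young mice, and a small SD itself makes an overlap less likely.

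**Figure D3:**
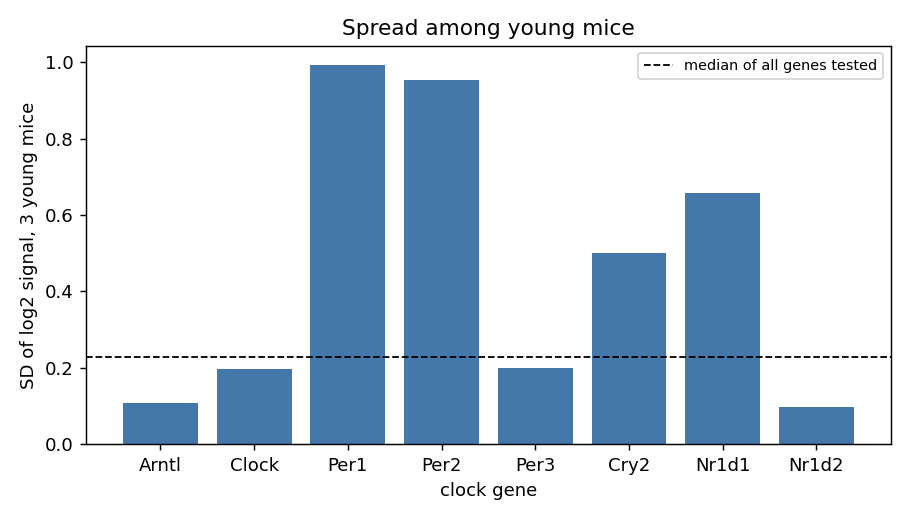
SD of the log2 signal over the 3 young mice (vertical axis) for the 8 core clock genes tested (horizontal axis), with the median of all 20900 genes as a dashed line at 0.23. Per1, Per2, Nr1d1 and Cry2 stand above the line at 0.50 to 0.99, and Arntl, Clock, Per3 and Nr1d2 below it.

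A further 20 genes that act around the loop are given, and 19 of them were tested. In aged muscle 8 had a higher and 11 a lower mean. Only Bhlhe41 passed the threshold in limma after adjustment over all genes (0.254% of genes did in either direction), and it did so downwards, as did 0.0574% of all genes. At an unadjusted p under 0.05 there were 8, every one lower in aged mice, where 8.36% of all genes were so. Of these, Ciart entered the test through its young arrays, and as these lists too were made with the contrast known, nothing is read from the counts. The median difference of the 19 genes was -0.14, against -0.06 for all genes.

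Among the factors that feed back on the loop, Bhlhe41 (DEC2), which competes with ARNTL and CLOCK at the E-box, fell. It was 0.14, 0.08 and 0.39 in young mice and -1.10, -1.14 and -1.45 in aged mice, a log2 difference of -1.43 (standard error 0.18, adjusted p = 0.0428 from limma). The adjusted p lay between 0.0363 and 0.176 over the alternatives, and 9 of the 15 alternatives ended the call, which held without aged mouse 1 (0.0400) but not without any other mouse (0.118 to 0.158). Its second probe differed by -0.68, with groups that did not overlap. Its relative Bhlhe40 (DEC1) differed by -0.50 (adjusted p = 0.254). Ciart (CHRONO), a repressor of the ARNTL and CLOCK pair, was -1.20, -0.79 and -1.65 in young mice and -1.87, -4.55 and -6.09 in aged mice, a difference of -2.95 (standard error 0.97, adjusted p = 0.265). Only 1 of the aged arrays, that of aged mouse 1, had it well above background, so the values of the other aged mice and the difference that rests on them are not exact. With normexp the difference was -0.90, and within the first row of the slide -0.65. Rora and Rorb, which encode receptors that oppose REV-ERB at the ROR element, differed by -0.14 and 0.26, and Arntl2, Cipc and Timeless by 0.0035, 0.17 and -0.28. The probe of Rorb was dim, at -3.07, -1.65 and -4.10 in aged mice. It was well above background on 3 young and 2 aged arrays, and the second probe of Rorb on none.

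The control region of Bhlhe41 is shown because it passed the threshold, and that of Ciart, picked after its matches were seen, because of its repeated E-box. Before its start, Bhlhe41 held 1 CACGTG and Ciart held 3, at 116, 58 and 44 bases. Start sites were at hand for 16 of the 20 further clock genes, with 23 promoters. Counted by gene, 4 of the 16 held CACGTG in any promoter, namely Bhlhe41, Ciart, Cipc and Tef. Of these 4, Cipc was not lower in aged mice (0.17). The stretches are chr6:145865484-145865603 and chr3:95882255-95882374 of GRCm38.p6, both on the - strand, from RefSeq.
Bhlhe41: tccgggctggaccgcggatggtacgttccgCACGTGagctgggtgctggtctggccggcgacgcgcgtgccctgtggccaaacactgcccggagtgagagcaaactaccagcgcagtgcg
Ciart: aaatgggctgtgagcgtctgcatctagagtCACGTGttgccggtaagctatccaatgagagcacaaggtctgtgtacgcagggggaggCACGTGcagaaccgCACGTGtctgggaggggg

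Dbp, Hlf, Tef and Nfil3 encode output factors that bind the D-box, of which Per3 had 2 copies before its start. Dbp was 6.80, 6.68 and 7.09 in young mice and 5.35, 5.28 and 3.40 in aged mice. Every aged mouse lay below every young mouse, by a gap of 1.33, and the log2 difference was -2.18 (standard error 0.52, adjusted p = 0.163) or 0.221-fold. Its second probe gave -2.35. Hlf was 2.32, 2.01 and 2.44 in young mice and 1.23, 0.84 and 0.04 in aged mice, a difference of -1.55 (standard error 0.32, adjusted p = 0.138), and of -1.02 within the first row of the slide. Tef was 7.73, 7.71 and 7.68 in young mice and 7.16, 7.46 and 6.92 in aged mice, a difference of -0.52 (adjusted p = 0.287). Nfil3 (E4BP4), which represses from the D-box where the other factors activate, was the one that differed the other way. It was 4.56, 4.41 and 3.57 in young mice and 4.66, 4.71 and 4.89 in aged mice, a difference of 0.57 (adjusted p = 0.403), with all aged mice above all young mice. None of these 4 passed the threshold in limma over all genes (0.254% of genes did), whereas 3 had an unadjusted p under 0.05 (14.4% of genes) and the groups of all 4 were apart (21.8% of genes). Without young mouse 3 the difference of Nfil3 was 0.27.

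**Figure D4:**
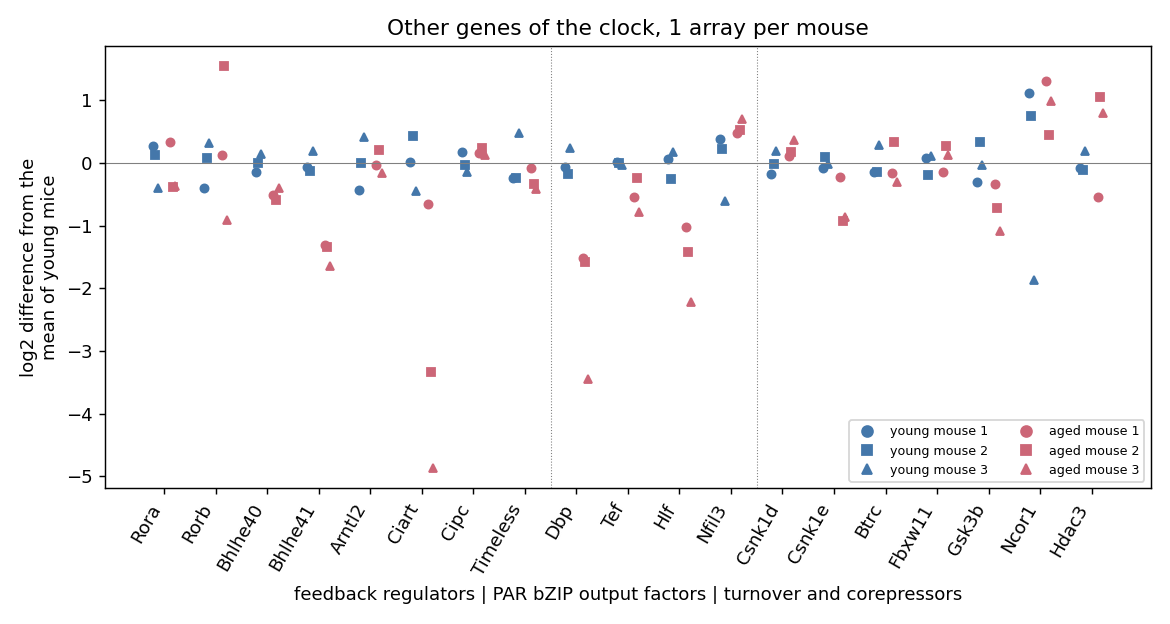
Log2 difference from the young mean (vertical axis) for 19 further genes of the clock (horizontal axis), 1 symbol per mouse, young in blue and aged in red, in 3 groups set off by dotted lines. Bhlhe40, Bhlhe41, Ciart, Dbp, Tef, Hlf, Csnk1e and Gsk3b lie lower in every aged mouse than in any young mouse, and Nfil3 higher; Ciart was not well above background in aged mice 2 and 3.

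Genes that control the lifetime of the PER and CRY proteins, and the corepressors that REV-ERB recruits, showed smaller or less uniform differences. Csnk1e, a kinase that marks PER for destruction, differed by -0.67 (adjusted p = 0.271), with -0.77 and -0.14 for its other probes. Gsk3b, a kinase of several clock proteins, differed by -0.72 (adjusted p = 0.294), with -0.92 and -0.01 for its other probes. Within the first row of the slide they differed by -0.23 (Csnk1e) and -0.34 (Gsk3b). Csnk1d, the close relative of Csnk1e, differed by 0.22, with -0.59 for its second probe, so that its direction depended on the probe. Btrc and Fbxw11, which target PER, differed by -0.04 and 0.09, and the second probe of Btrc by -0.84. The corepressor genes Ncor1 and Hdac3 differed by 0.91 and 0.43. Young mouse 3 was low for Ncor1 (-0.26, against 2.72 and 2.35 in the other young mice), without it the difference was -0.019, and the other probes of the gene gave -0.15 and -0.40. Fbxl21 was not well above background on any array.

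The groups of 9 further clock genes did not overlap, where 21.8% of all genes had such groups. Aged mouse 3 was farthest from the young mice for 7 of the 9, against 52.2% of all genes with such groups. Aged mouse 1 was nearest for 7, against 39.2%, and both held for 6, against 28.2%. Ciart, 1 of the 9, was well above background in aged mouse 1 only, so its order is not exact. As the lists were made with the contrast known, nothing is read from these counts. Aged mouse 1 was also the only aged mouse in the first row of the slide, so its place in the order and the row cannot be told apart.

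The genes whose profile over the 6 arrays was most like that of Arntl were Pkp2, Hip1r, Pigh, Cx3cl1 and 2210016F16Rik. Their root mean square distance from Arntl, after each gene was centred on its mean, was 0.120, 0.121, 0.123, 0.134 and 0.151 on the log2 scale, where Arntl itself varied by 0.63. They were higher in aged mice by 1.28, 1.01, 0.98, 1.27 and 1.26. This follows from the choice, since the difference between the age groups is part of the profile. The profiles most like that of Nr1d1 were those of Fzd2, Gm4736, Adam12, Cnksr2 and Plcd3, at distances of 0.110, 0.110, 0.115, 0.117 and 0.135, where Nr1d1 varied by 0.49. Their differences between aged and young mice were between -0.44 and -0.15, which again follows from the choice. None of the 20 further clock genes was among these 10. The distance is small only for genes that vary in the same direction and by a similar amount, so nothing is read from this.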

How the data were processed

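The authors' deposited files are Feature Extraction output (11.0.1.1 per the file headers, 9.5 per the labels). The deposited intensity is the processed signal, background-subtracted and detrended within the array but not scaled between arrays. The series matrix held the same intensity. Of 62976 spots per array, 161 to 212 flagged outlier spots were left out, the remaining spots of each probe were averaged, and on the log2 scale the array's 75th percentile (a signal of 210 to 311) was subtracted. Accessions matched RefSeq symbols for 28325 of 55669 probes. A gene was represented by its brightest probe well above background on at least 3 of 6 arrays. The age groups, 3 mice each, were fitted in limma 3.58.1 under R 4.3.3 (lmFit and eBayes), p-values were adjusted by Benjamini-Hochberg across the 20900 genes at a threshold of 0.05, and the fit was tested on simulated data. Groups came from the labels. The genes named are the 10 members, 20 further clock genes (others on the list are not reported here) and the 5 nearest profiles of each of Arntl and Nr1d1. The members and lists were chosen with earlier results of these data known. Replicates are separate mice. Alternatives changed the background correction, the scaling, the filter, the summary over probes, the block, the variance trend and the mice included. The planned normexp on the mean spot signal was not run, and the median spot signal was used instead.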

Additional observations from a re-analysis of the deposited data

How the results depend on the processing

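The 8 members tested kept their direction under every alternative run, except Cry2 and Nr1d1. Blocking on the slide row, which leaves aged mouse 1 against the young mice, gave a difference of 0.86 for Arntl, 0.46 for Clock, 1.16 for Cry2, 0.20 for Nr1d1, -0.87 for Nr1d2, -0.012 for Per1 and -0.45 for Per3, and a balance of activators and repressors of 0.77. With normexp on the median spot signal, chosen after seeing the data in place of the mean spot signal, Clock was 0.30 and Per3 -0.54. Leaving out 1 mouse gave -0.13 to 0.60 for Cry2, 1.38 to 2.30 for the balance, 0 to 1 members called, 0 to 2 further clock genes called (without aged mouse 1, Bhlhe41 and Ciart, the latter not well above background on the aged arrays left) and 1 (without aged mouse 3) to 199 (without aged mouse 1) of all genes called, against 53, and 8 or 9 of all genes without any one of the other mice. The 53 became 8 with no filter on dim probes, 35 when all 6 arrays had to be well above background and 5 with the replicate block. Further clock genes called were 0 with no filter, after averaging the probes of each gene, under the row block and under the replicate block. No pairing is assumed: same-numbered mice correlated at -0.062, -0.27 and 0.028 in their deviations, and no mouse correlated best with its own number. Under the replicate block Bhlhe41 (adjusted p = 0.176 in limma) was the one clock gene whose call changed. Of the 53, 41 were higher, and 26 of 42 with median scaling and 38 of 60 with normexp. Median scaling lowered the median difference of all genes from -0.06 to -0.21.

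Among further clock genes not past the threshold, signs turned for several. Arntl2 was -0.040 with normexp, -0.010 after quantile normalization, -0.14 with median scaling and -0.037 under the row block. Btrc was 0.095 with normexp and Csnk1d -0.19 with the mean of its probes. Fbxw11 was -0.061 with median scaling. Under the row block, Fbxw11 was -0.14, Hdac3 -0.54 and Rora 0.34. Leaving out 1 mouse gave -0.21 to 0.21 for Arntl2, -0.23 to 0.10 for Btrc, -0.0082 to 0.20 for Fbxw11, -0.019 to 1.47 for Ncor1, -0.38 to 1.6e-05 for Rora and -0.39 to 0.84 for Rorb. The cause was not tested. Signal over background limits Npas2, Cry1, Per3, Rorb and Ciart.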
